A study of Homo sapiens with 36 samples.

Results

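The response of cis SSP cells to carboplatin in complete medium was measured by RNA-seq in 6 of the 36 libraries of the study, chosen by their labels: 3 libraries of untreated cis SSP cells (libraries 25, 26 and 27) and 3 of cis SSP cells given carboplatin (cis SSP carbo, libraries 28, 29 and 30). A2780 is a human ovarian cancer cell line. The cis cells are its platinum-resistant derivative, and the cis SSP cells grew out of cis cells that were kept without serine and glycine. Both groups were in medium that held serine and glycine, and by their labels only carboplatin set them apart. The labels give its dose as 6 M, while other assays of these cells used the same number in µM. The libraries of a condition are called technical replicates in the study's legends, so the p-values below measure the spread between such libraries and not that between independent cultures. For comparison, the same treatment was taken from 6 libraries each of sensitive parental cells (wt), of cis cells and of cis SSP cells without serine and glycine (cis SSP -SG).

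Carboplatin forms platinum adducts and crosslinks on DNA. Such lesions stall replication forks and activate the kinases ATR and ATM, and in cells with working p53 the protein is stabilised and switches on genes for arrest (CDKN1A), repair (XPC, DDB2), death (BAX, BBC3, FAS) and its own breakdown (MDM2). Platinum-resistant cells are known to take up less drug, to repair or tolerate more adducts, or to detoxify more of it through glutathione. Serine feeds glycine, one-carbon units and nucleotide synthesis, which is why a population selected without it is of interest under a DNA-damaging drug.

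Total counts on genes ran from 14455766 to 19592665 in the 6 libraries. Library 25 stood apart from libraries 26 and 27 of its own group. Its counts fell by 0.428 on the log2 scale for each doubling of transcript length when set against those libraries, and the mean chi-square of its counts over genes was 118 and 103 in its pairs with them, against 7.4 for libraries 26 and 27 and 1.51 to 4.61 between the treated libraries. In the plot of expression by transcript length, genes with a longest transcript over 8000 bases had a median log2 ratio of -0.86 in library 25 and genes of 500 to 1000 bases one of 0.87. Only library 32, of the condition cis SSP -SG, had a like slope among the 36 libraries (-0.44). Every comparison was therefore made with all 6 libraries and again without library 25. The common dispersion of the counts was 0.0328 with it and 8.23e-04 without it. Of 10 markers of ovarian epithelial tumours 8 averaged under 1 CPM in both groups, so the labelled tissue was only weakly visible in these markers, and the summed level was 9.69 to 16.2 CPM in untreated and 18.3 to 20.2 CPM in treated libraries. CPM is a gene's count relative to the library total, scaled to the usual base and normalised by the TMM method over the 36 libraries. Markers of other cell types summed to 15.4 to 20.9 and 15.4 to 16.3 CPM, with 7 of 9 matched markers under 1 CPM on average in both groups.

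**Figure D1:**
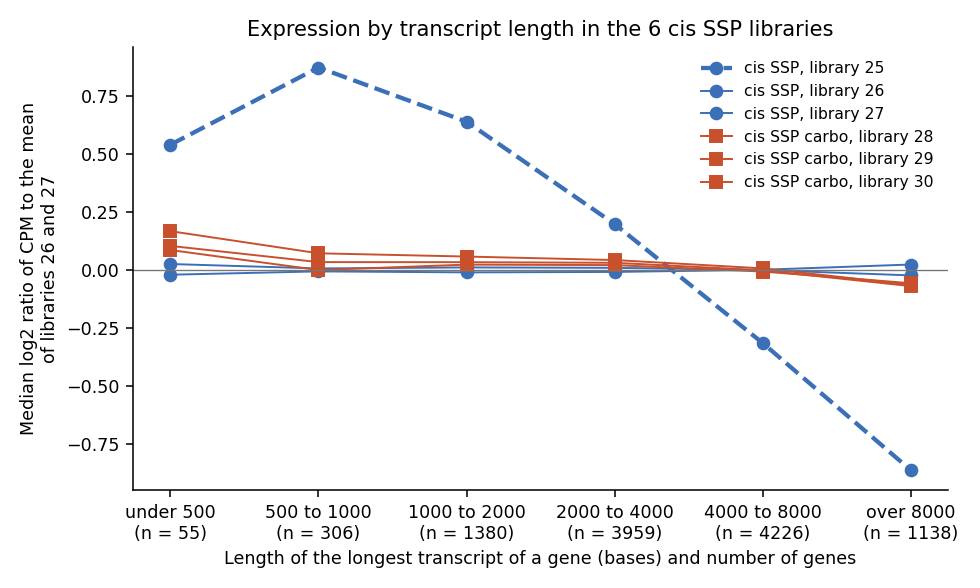
Median log2 ratio of CPM to the mean of libraries 26 and 27, by the length of a gene's longest transcript in bases, for genes with a mean of at least 50 counts. Circles are untreated and squares are carboplatin-treated cis SSP libraries, and the dashed line is library 25, which runs from 0.87 at 500 to 1000 bases to -0.86 over 8000 bases while the other libraries stay near 0.

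With all 6 libraries, 377 of 13885 genes tested differed at an adjusted p-value under 0.05 (quasi-likelihood test of edgeR, adjusted by the Benjamini-Hochberg method). Carboplatin-treated cells were higher for 273 of them (1.97% of the genes tested) and lower for 104 (0.749%). Without library 25, 5835 of 14170 genes passed, 3109 higher (21.9%) and 2726 lower (19.2%). All 377 genes of the first set were also called without library 25 and in the same direction, whereas 3633 of the 13885 genes tested in both fits changed sign. The number rested on each library. It was 65 without library 26, 54 without library 27, 9 without library 28, 22 without library 29 and 17 without library 30. In 2540 of the tested genes (18.3%) every treated library was above every untreated one, and in 2134 (15.4%) below. All 377 called genes were among these. Below, "rose" and "fell" stand for genes called by the test, and the fit is named.

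**Figure D2:**
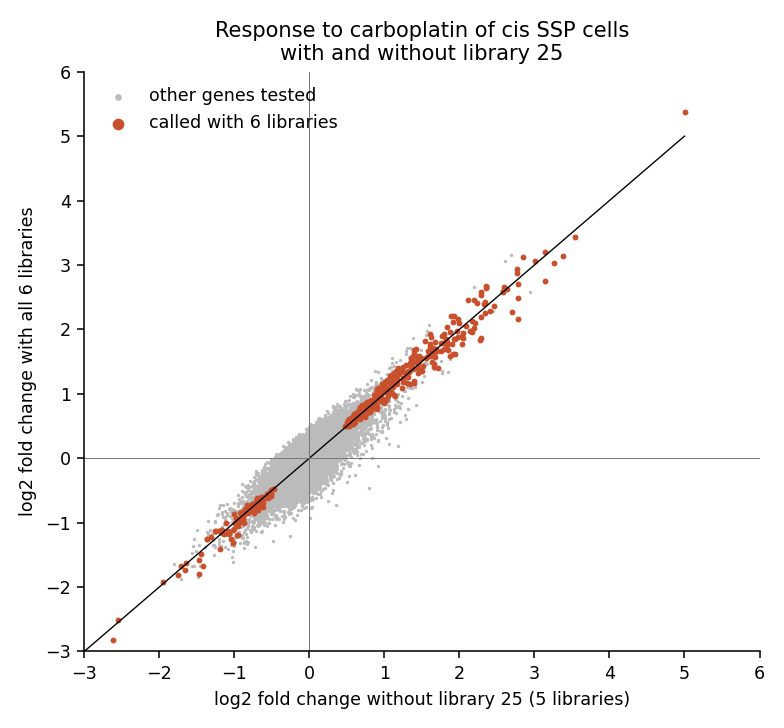
Log2 fold change of each gene with carboplatin in cis SSP cells, without library 25 on the x axis and with all 6 libraries on the y axis, with the diagonal as a black line. The 377 genes called with 6 libraries (red) lie in the quadrants of equal sign, and the other tested genes (grey) spread off the diagonal near 0.

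The 10 genes with the largest rise, among those called in both fits with a mean of at least 50 counts over the 6 libraries, rose by 2.13 to 3.12 on the log2 scale with all 6 libraries. CDKN1A encodes p21, an inhibitor of cyclin-dependent kinases, and lies on chromosome 6 from 36644237 to 36655114 (GRCh37). Its level was 64.9, 56.6 and 54.6 CPM in libraries 25 to 27 and 385, 389 and 371 CPM in libraries 28 to 30. The groups were far apart and library 25 sat beside its own group. The log2 fold change was 2.70 (adjusted p = 0.00107, standard error 0.112) with and 2.78 (adjusted p = 9.93e-29, standard error 0.0336) without library 25. GDF15, a stress-induced cytokine of the TGF-beta superfamily on chromosome 19, went from 24.7, 13.5 and 12 CPM to 110, 122 and 105 CPM. Library 25 was the highest untreated library, and the log2 fold change was 2.75 with and 3.14 without it. CD274, which encodes the checkpoint ligand PD-L1 on chromosome 9, was at 0.919, 1.32 and 1.09 CPM without and at 8.52, 8.60 and 7.55 CPM with the drug, a log2 fold change of 2.87 (adjusted p = 0.00196). This was a rise from about 1 CPM (at most 22 counts in an untreated library), in which the groups did not overlap, and the gene reached the mean of 50 counts through the treated libraries.

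LIF, a cytokine of the interleukin-6 family, went from 8.63, 9.63 and 10.9 CPM to 52.3, 48.5 and 53.6 CPM. Library 25 was the lowest untreated library, and the log2 fold change was 2.40 with and 2.32 without it. NPR2, the receptor guanylyl cyclase for C-type natriuretic peptide, was at 24.5, 22.9 and 23.2 CPM and then at 106, 102 and 102 CPM. KANK4, of the KANK family of adaptor proteins, was at 6.58, 14.8 and 15.3 CPM and then at 77.3, 79.0 and 74.5 CPM, so library 25 was below the other untreated libraries by more than these differed. KCNN4, a calcium-activated potassium channel, rose by 2.26 and the histamine receptor gene HRH1 by 2.58 on the log2 scale. The gene with the largest change, ENSG00000133808, was given no symbol by the annotation. Its level was 0.354, 1.14 and 0.652 CPM in untreated and 6.47, 6.16 and 6.57 CPM in treated libraries. Like CD274, this gene reached the mean of 50 counts through the treated libraries. With 1 library left out in turn, its log2 fold change ran from 2.84 to 3.60, and it was called in 2 of 6 fits.

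The upstream sequence of a gene is shown where a gene named here rose in both fits and its window of 250 bases before the RefSeq start (GRCh38.p14) held a binding motif of the leucine zipper factors whose genes rose as well (JUN, FOSL1 and ATF3). The motifs searched on both strands were TGACTCA (reverse complement TGAGTCA), bound by AP-1, and TGACGTCA, its own reverse complement, bound by CREB and ATF proteins. Capitals mark them. Of 27305 promoters in the RefSeq table, 4.16% held the first motif and 1.77% the second in this window. The table held 205 of the 273 genes that rose and 10242 of the 13885 tested, too few for a share over either, and the share of all promoters is not that of the genes tested. Of 25 named genes that rose in both fits and had a window, 23 held neither motif. The window of HRH1 lies on the plus strand at chr3:11136988-11137237 with the motif 71 bases before the start, and that of GABARAPL1 on the plus strand at chr12:10212627-10212876 with the motif 30 bases before it.
HRH1: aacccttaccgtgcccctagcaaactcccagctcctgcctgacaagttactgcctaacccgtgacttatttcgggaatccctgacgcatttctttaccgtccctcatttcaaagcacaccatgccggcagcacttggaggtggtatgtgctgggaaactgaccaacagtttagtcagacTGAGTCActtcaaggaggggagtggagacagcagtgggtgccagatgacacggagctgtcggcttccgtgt
GABARAPL1: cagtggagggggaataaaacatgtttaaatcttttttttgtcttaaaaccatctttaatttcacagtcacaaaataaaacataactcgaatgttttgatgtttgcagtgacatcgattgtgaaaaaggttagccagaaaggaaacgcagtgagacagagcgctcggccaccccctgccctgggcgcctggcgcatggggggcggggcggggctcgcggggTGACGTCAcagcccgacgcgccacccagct
A match of letters is a description and does not show that a factor was bound.

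The genes that fell most had low to moderate counts, and several encode metabolic enzymes or transporters. ALDH3B1, an aldehyde dehydrogenase, went from 15.5, 16.4 and 16.6 CPM to 5.26, 5.49 and 4.38 CPM, a log2 fold change of -1.68 (adjusted p = 0.00352, standard error 0.121) with and -1.71 without library 25. SLC2A4, the insulin-regulated glucose transporter GLUT4, went from 7.71, 7.84 and 8.20 CPM to 3.21, 2.16 and 2.30 CPM. MAP2K6, a kinase that activates p38, went from 5.59, 6.40 and 5.76 CPM to 1.53, 1.89 and 1.27 CPM. In each of these genes library 25 was close to the other untreated libraries, and the treated libraries were all lower. DHRS2, a short-chain dehydrogenase, fell by 1.59 and GNG7, a G-protein subunit, by 1.49 on the log2 scale with all 6 libraries. PRPH (peripherin), SERPINF2 (alpha-2-antiplasmin), PALM3, CA14 (a carbonic anhydrase) and C1R (a complement protease) completed the 10. For these 5 genes library 25 was the highest untreated library, and the changes were smaller without it, for example -1.48 in place of -1.81 for PRPH and -1.01 in place of -1.32 for PALM3.

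**Figure D3:**
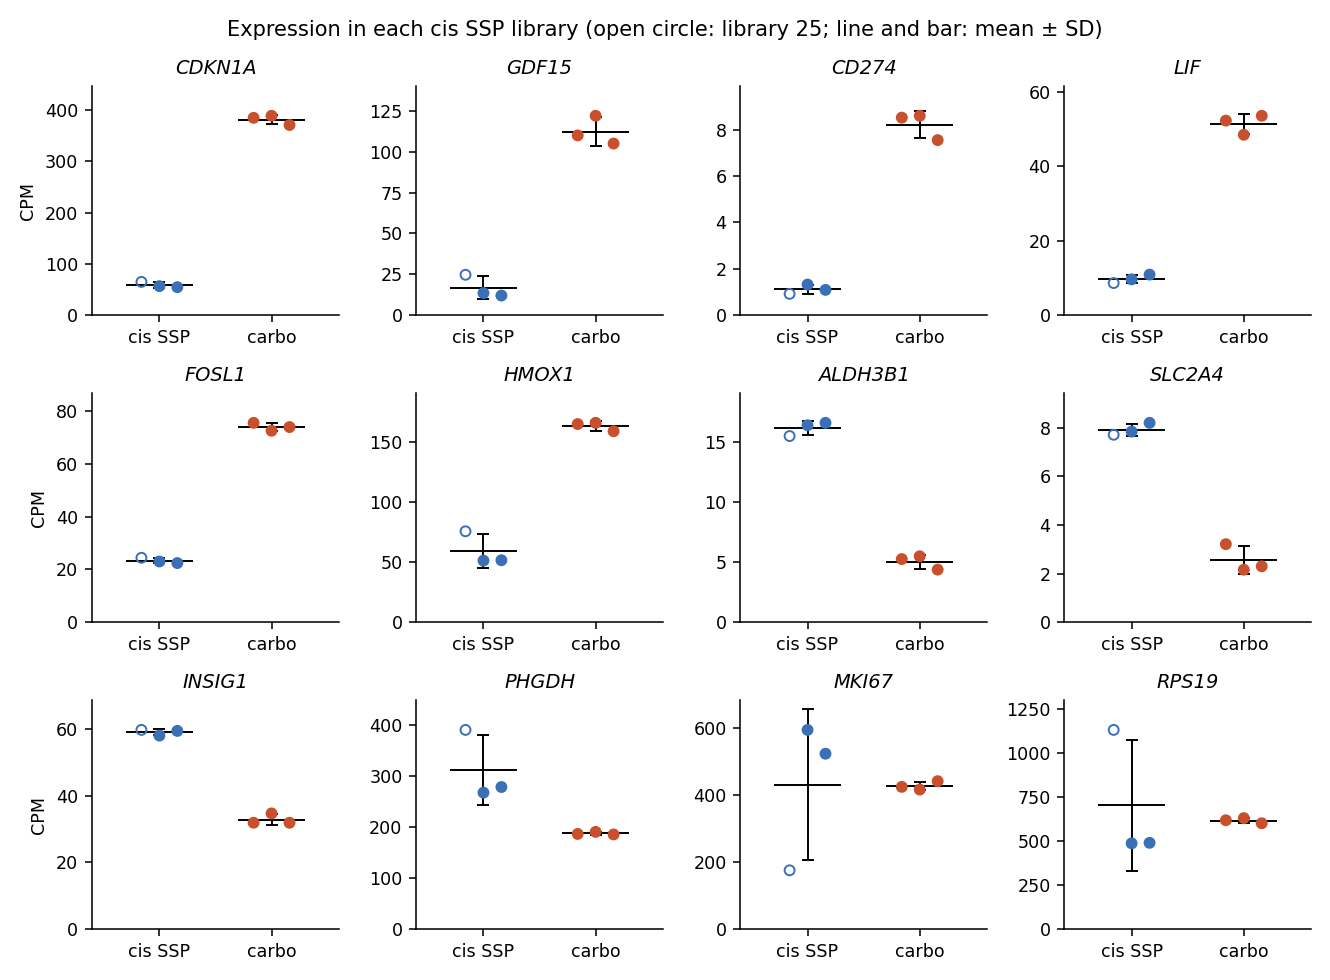
CPM of 12 genes in each library of untreated and carboplatin-treated cis SSP cells, on linear axes from 0, with the mean and SD of 3 libraries as lines. Open circles are library 25: it lies with its group for CDKN1A, FOSL1 and INSIG1, and apart from it for MKI67 (176 CPM against 595 and 524) and RPS19 (1130 CPM against 487 and 490).

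Target genes of p53 had the largest median log2 fold change of the gene lists in both fits. Of 29 members tested among 32, 13 rose and 0 fell with all 6 libraries, and 29 rose without library 25. No member had a lower value at an unadjusted p under 0.05 in either edgeR fit or in the 6-library DESeq2 test, in which 20 rose. The median log2 fold change was 0.81 with and 0.82 without library 25, against -0.02 and -0.0002 over all genes tested. Of all genes tested, 1.97% rose and 0.749% fell with all 6 libraries, and 21.9% and 19.2% without library 25. BTG2, an antiproliferative gene, went from 56.8, 48.1 and 48.0 CPM to 137, 141 and 135 CPM (log2 fold change 1.43, adjusted p = 0.00397). MDM2, which encodes the ligase that degrades p53, was at 122, 216 and 210 CPM and then at 416, 417 and 416 CPM. The groups did not overlap, but the low value of library 25 widened the spread, and MDM2 passed only without that library (log2 fold change 0.97, adjusted p = 3.81e-21, against 1.18 and 0.0542 with it). BAX and BBC3, which promote mitochondrial cell death, also passed only without library 25. Their log2 fold changes were smaller with that library, whereas that of MDM2 was larger. BAX was at 170, 93.0 and 95.4 CPM without and at 166, 167 and 166 CPM with the drug, so library 25 equalled the treated libraries. Its log2 fold change was 0.47 (adjusted p = 0.394) with and 0.82 (adjusted p = 3.80e-17) without library 25. BBC3 had a log2 fold change of 0.81 (adjusted p = 0.186) and 1.16 (adjusted p = 2.40e-12), respectively. PMAIP1, which encodes the BH3-only protein NOXA, rose in both fits, by 0.75 and 0.82 on the log2 scale.

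DNA repair genes are described beside all genes tested. Of those, 1.97% rose and 0.749% fell with all 6 libraries, and 21.9% and 19.2% did so without library 25. In nucleotide excision repair, which removes platinum adducts, 1 of 19 tested genes rose and 0 fell with all 6 libraries, with 5 and 0 at an unadjusted p under 0.05 in edgeR, and 3 and 0 by DESeq2. Without library 25, 6 rose and 2 fell, and the median was -0.03. XPC, which recognises damage, went from 59.5, 71.5 and 73.3 CPM to 114, 109 and 112 CPM and rose in both fits (log2 fold change 0.71 and 0.62). DDB2, of the other recognition complex, was at 103, 76.4 and 75.7 CPM and then at 138, 140 and 136 CPM, and rose only without library 25 (log2 fold change 0.86, adjusted p = 7.06e-17, against adjusted p = 0.073). ERCC1, part of the nuclease that cuts beside the lesion, was at 114, 69.5 and 71.7 CPM and then at 146, 142 and 140 CPM, and also rose only without library 25 (log2 fold change 1.01). Among 29 Fanconi anemia and homologous recombination genes none passed with all 6 libraries (edgeR, with 0 higher and 3 lower at an unadjusted p under 0.05, and 0 by DESeq2). Without library 25, 2 rose, among them RAD51C by 0.47, and 12 fell, among them FANCC by 0.47. The translesion polymerase gene POLH rose by 0.65 without library 25 and had an adjusted p of 0.122 with it.

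Genes of G2, mitosis and DNA replication had small median changes in both fits. The shares over all genes tested were 1.97% higher and 0.749% lower with all 6 libraries, and 21.9% and 19.2% without library 25. Of 32 genes of G2 and mitosis, 0 were called with all 6 libraries (edgeR, with 0 higher and 1 lower at an unadjusted p under 0.05, and 0 by DESeq2), and 3 rose and 16 fell without library 25, with medians of -0.05 and -0.10. MKI67, the proliferation marker, was at 176, 595 and 524 CPM in untreated and at 425, 417 and 442 CPM in treated libraries. The treated values lay between library 25 and the other untreated ones. Its log2 fold change was -0.02 (adjusted p = 0.989) with all 6 libraries and -0.39 (adjusted p = 0.0245) without library 25. ASPM, a spindle pole gene, was at 255, 768 and 710 CPM and then at 508, 503 and 525 CPM and fell by 0.53 without library 25. Its longest transcript has 11085 bases and that of MKI67 12716 bases. UBE2C, which has a longest transcript of 914 bases and acts in the degradation of cyclins, was at 147, 80.8 and 83.5 CPM and then at 103, 99.5 and 97.7 CPM, and rose by 0.28 without library 25. KIF20A, a mitotic kinesin, fell by 0.34 and CCNB2, a cyclin, by 0.31 in the same fit. Among 36 DNA replication genes, 1 rose and 0 fell with all 6 libraries (2 and 7 at an unadjusted p under 0.05 in edgeR, 1 and 2 by DESeq2), and 5 rose and 17 fell without library 25. RRM2, a subunit of ribonucleotide reductase, went from 340, 368 and 364 CPM to 587, 599 and 587 CPM and rose in both fits (log2 fold change 0.72 and 0.69). The replication clamp gene PCNA rose by 0.46 without library 25. The helicase subunit genes MCM3 and MCM6 fell by 0.35 and 0.34 and GINS2 by 0.35 in that fit. Of the 10 clustered histone genes tested without library 25, 9 rose and 0 fell (edgeR, with the same counts at an unadjusted p under 0.05; with all 6 libraries 1 rose and 0 fell by DESeq2), with a median of 0.81, and H2AC11 was the 1 that also rose with all 6 libraries (2.55, 3.11 and 2.50 CPM against 5.00, 5.77 and 4.95 CPM).

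Immediate-early genes, which encode fast-acting transcription factors, rose in part. Of 17 tested, 4 rose and 1 fell with all 6 libraries, and 13 rose and 2 fell without library 25, with medians of 0.40 and 0.49. Over all genes tested, 1.97% rose and 0.749% fell with all 6 libraries, and 21.9% and 19.2% without library 25. FOSL1, which encodes the AP-1 subunit FRA-1, was at 24.4, 23 and 22.4 CPM and then at 75.5, 72.5 and 73.9 CPM (log2 fold change 1.66, standard error 0.0916, adjusted p = 0.00164; without library 25 1.70, standard error 0.0533). JUN, its partner, was at 7.49, 7.36 and 7.71 CPM and then at 21.8, 24.7 and 19.9 CPM. EGR2 and EGR3, zinc finger factors, rose in both fits, by 1.07 and 0.80 with all 6 libraries. FOS went the other way, from 64.7, 56.0 and 57.9 CPM to 35.5, 33.1 and 38.5 CPM (log2 fold change -0.74, adjusted p = 0.0282). ATF3, a stress factor of the same protein class, was at 1.70, 2.15 and 2.44 CPM and then at 7.58, 6.88 and 6.68 CPM. Of 10 NF-kB genes tested, 0 passed with all 6 libraries (edgeR, 2 higher and 0 lower at an unadjusted p under 0.05, 2 and 0 by DESeq2) and 7 rose and 1 fell without library 25, among them BIRC3 by 0.78 and RELB by 0.49. Of 16 interferon-stimulated genes, 1 rose with all 6 libraries, HERC5, by 0.89, and 7 of 17 rose and 5 fell without library 25.

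Genes of the cytoskeleton and matrix moved in both directions without library 25, as did all genes tested, of which 21.9% rose and 19.2% fell. With all 6 libraries these shares were 1.97% and 0.749%. Of 21 epithelial-mesenchymal and matrix genes, 5 rose and 0 fell with all 6 libraries (9 and 2 at an unadjusted p under 0.05 in edgeR, 7 and 1 by DESeq2), and 12 of 22 rose and 6 fell without library 25. TAGLN, which encodes an actin-binding protein, went from 35.1, 24.4 and 24.7 CPM to 64.5, 65 and 63.5 CPM. THBS1, the matrix protein thrombospondin, went from 0.990, 1.80 and 0.761 CPM to 5.05, 4.66 and 4.09 CPM. COL1A2, a fibrillar collagen gene with at most 7 counts in an untreated library, rose by 1.54 with all 6 libraries (adjusted p = 0.0478). COL3A1, another, was at 3060, 3870 and 3850 CPM and then at 2430, 2450 and 2380 CPM. It was lower in each treated library than in each untreated one and fell by 0.68 without library 25 (adjusted p = 8.97e-22), with an adjusted p of 0.0923 with it. COL5A1 fell by 0.70 and COL1A1 by 0.44 in that fit. ACTA2, a smooth muscle actin gene counted among the markers of other cell types, was at 1.91, 0.718 and 1.03 CPM and then at 2.68, 3.44 and 2.94 CPM. COL1A1 is in the same marker list, and of its 2 members tested without library 25, 1 rose and 1 fell. KRT18, a keratin gene among the ovarian markers, rose by 0.84 without library 25. Of the 4 ovarian markers tested in that fit, 1 rose and 0 fell.

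Metabolic gene lists had small median changes, with members called in each direction. Over all genes tested, 1.97% rose and 0.749% fell with all 6 libraries, and 21.9% and 19.2% without library 25. In the synthesis and uptake of serine, none of 5 genes passed with all 6 libraries (edgeR, 0 higher and 1 lower at an unadjusted p under 0.05, 0 and 1 by DESeq2), and 1 rose and 2 fell without library 25. PHGDH, which encodes the first enzyme of serine synthesis and lies on chromosome 1 from 120191034 to 120286841, was at 391, 268 and 279 CPM and then at 187, 191 and 186 CPM. Every treated library was lower, and the log2 fold change was -0.74 (adjusted p = 0.0837, standard error 0.165) with and -0.55 (adjusted p = 8.10e-15, standard error 0.0277) without library 25. PSAT1, the second enzyme, was at 638, 650 and 649 CPM and then at 559, 591 and 559 CPM and fell by 0.19 without library 25. PSPH, the last enzyme, rose by 0.13 in that fit (adjusted p = 0.0118), with a log2 fold change of 0.03 with all 6 libraries. The transporter genes SLC1A4 and SLC1A5 had log2 fold changes of -0.015 (adjusted p = 0.838) and -0.04 (adjusted p = 0.32) without library 25.

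Of 17 one-carbon genes, 1 rose and 1 fell with all 6 libraries. GLDC, of the glycine cleavage system, went from 44.5, 45.8 and 47.2 CPM to 90.0, 90.3 and 88.3 CPM (log2 fold change 0.96, adjusted p = 0.0057), and SHMT1, the cytosolic enzyme that interconverts serine and glycine, from 76.4, 62.9 and 66.9 CPM to 46.5, 45.2 and 45.3 CPM (log2 fold change -0.59, adjusted p = 0.0434). Without library 25, 5 rose and 7 fell, among them ALDH1L2 by 0.64 and MTHFD1 by 0.41. Of 26 ATF4 targets, 2 rose and 0 fell with all 6 libraries (2 and 4 at an unadjusted p under 0.05 in edgeR, 2 and 0 by DESeq2), and these were ATF3 and SESN2, a sestrin that is also a p53 target (60, 65 and 63.4 CPM against 97.8, 96.7 and 97.0 CPM). Without library 25, 10 rose and 6 fell with a median of 0.04. DDIT3 and NUPR1 rose by 0.68 and 0.54 and ASNS, asparagine synthetase, fell by 0.21. ATF4 itself had a log2 fold change of -0.30 (adjusted p = 0.482) with and -0.05 (adjusted p = 0.149) without library 25.

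Of 31 enzymes of the TCA cycle and glutamine use, 0 rose and 2 fell with all 6 libraries (1 and 5 at an unadjusted p under 0.05 in edgeR, 0 and 3 by DESeq2), and 6 rose and 9 fell without library 25. IDH1, the cytosolic isocitrate dehydrogenase that makes NADPH, went from 114, 101 and 110 CPM to 71.5, 67.1 and 65.7 CPM (log2 fold change -0.67, adjusted p = 0.0248), and PC, pyruvate carboxylase, from 24.7, 25.1 and 25.5 CPM to 16.3, 18.9 and 16.5 CPM. IDH2, the mitochondrial relative of IDH1, fell by 0.51 without library 25. Among 23 enzymes of glycolysis and glycerol metabolism, 1 rose and 1 fell with all 6 libraries, and 12 rose and 3 fell without library 25. PKM, pyruvate kinase, went from 1470, 1200 and 1210 CPM to 2220, 2230 and 2200 CPM, and PFKFB4, which sets the level of an activator of glycolysis, fell by 0.86. LDHA, lactate dehydrogenase, rose by 0.28 without library 25. QPRT, an enzyme of NAD synthesis, went from 2.33, 2.03 and 1.74 CPM to 1.05, 0.887 and 0.979 CPM. PARP1, the main consumer of NAD at DNA breaks, was at 605, 654 and 646 CPM and then at 569, 578 and 570 CPM and fell by 0.19 without library 25.

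Of 27 cholesterol synthesis genes, 0 rose and 3 fell with all 6 libraries (1 and 6 at an unadjusted p under 0.05 in edgeR, 0 and 4 by DESeq2), and 5 rose and 13 fell without library 25. INSIG1, which holds the SREBP factors back in the endoplasmic reticulum and is itself their target, went from 59.7, 58.0 and 59.4 CPM to 31.9, 34.7 and 31.9 CPM (log2 fold change -0.85, adjusted p = 0.00943). LSS, lanosterol synthase, fell by 0.67 and SREBF1, which encodes an SREBP factor, by 0.62. MVK, mevalonate kinase, fell by 0.63 and TM7SF2, a sterol reductase, rose by 0.54 without library 25. SCD, the stearoyl-CoA desaturase, was at 563, 951 and 945 CPM and then at 1410, 1440 and 1390 CPM, and rose by 0.57 without library 25 (adjusted p = 3.04e-18), with an adjusted p of 0.14 with it.

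Among 18 NRF2 and glutathione genes, 2 rose and 0 fell with all 6 libraries (2 and 0 at an unadjusted p under 0.05 in edgeR and by DESeq2), and 14 rose and 0 fell without library 25 (15 and 0 at an unadjusted p under 0.05), with a median of 0.18. Over all genes tested, 1.97% rose and 0.749% fell with all 6 libraries, and 21.9% and 19.2% without library 25. HMOX1, heme oxygenase, went from 75.7, 51.3 and 51.6 CPM to 165, 166 and 159 CPM, and GCLM, a subunit of the enzyme that starts glutathione synthesis, from 22.9, 25.8 and 25.2 CPM to 37.6, 38.0 and 38.5 CPM. GPX1 and FTL rose by 0.59 and 0.31 without library 25, in which both were highest (98.3 CPM for GPX1 against 46.3 to 73.8 CPM in the other libraries). Of 12 platinum and copper transport genes none passed with all 6 libraries (edgeR, 2 higher and 0 lower at an unadjusted p under 0.05, 0 by DESeq2), and 5 rose and 1 fell without library 25. ABCG2, a drug efflux pump, rose by 1.05 and LRRC8A, a subunit of the volume-regulated anion channel that carries platinum drugs, by 0.31. MT2A, one of the 2 metallothioneins tested, was at 39.3, 14.8 and 15.8 CPM and then at 39.5, 34.7 and 37.3 CPM and rose by 1.28 without library 25. GABARAPL1, of the autophagy machinery, rose in both fits (4.81, 4.61 and 5.76 CPM against 11.3, 11.9 and 11.9 CPM), and SQSTM1, an autophagy receptor, by 0.49 without library 25. EPAS1, which encodes the hypoxia factor HIF-2 alpha, went from 0.212, 0.359 and 0.380 CPM to 1.84, 1.39 and 1.21 CPM, with at most 7 counts in an untreated library.

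Lists of short genes showed how far library 25 carried a result. The shares of all genes tested were 1.97% higher and 0.749% lower with all 6 libraries, and 21.9% and 19.2% without library 25. None of 76 cytosolic ribosomal protein genes passed with all 6 libraries (edgeR, 0 at an unadjusted p under 0.05 and 0 by DESeq2) and their median was -0.29, whereas 58 rose and 2 fell without library 25 and the median was 0.09. RPS19 was at 1130, 487 and 490 CPM in untreated and at 618, 630 and 601 CPM in treated libraries, and its log2 fold change was -0.19 with and 0.33 without library 25. RPSA fell by 0.06 in the latter fit. None of 71 nuclear genes of the respiratory chain passed with all 6 libraries (edgeR, 0 higher and 4 lower at an unadjusted p under 0.05, 0 and 1 by DESeq2), with a median of -0.49, and 3 rose and 26 fell without library 25, with a median of -0.08. NDUFS5 rose by 0.21 and NDUFS7, another subunit of complex I, fell by 0.46 in that fit. The 13 mitochondrially encoded proteins had medians of 0.51 and 0.78 and none passed in either fit (edgeR, 5 and 3 higher and 0 lower at an unadjusted p under 0.05 with and without library 25, and 3 higher by DESeq2 with all 6 libraries).

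The same treatment had been applied to wt, cis and cis SSP -SG cells in separate libraries. In wt cells 5689 of 14639 genes were higher (38.9%) and 5707 lower (39.0%) with carboplatin. In cis cells 1247 of 13458 were higher (9.27%) and 1455 lower (10.8%). In cis SSP -SG cells 159 of 13541 were higher (1.17%) and 40 lower (0.295%), and 2925 (21.1%) and 2754 (19.9%) of 13833 without library 32. The count of 199 in cis SSP -SG cells was 0 to 4 without any other single library. Of the genes that rose in cis SSP cells in both fits, 233 of 247 tested in wt cells were higher there and 6 lower, 153 and 1 of 225 in cis cells, and 238 and 1 of 265 in cis SSP -SG cells without library 32. Their median log2 fold changes there were 1.75, 0.39 and 0.90, where the same genes had medians of 1.14, 1.08 and 1.16 in cis SSP cells without library 25. These genes were chosen for their response in cis SSP cells, so their medians in that population are a description. Of the genes that fell, 81 of 97 tested were lower there in wt cells and 8 were higher, 53 and 0 of 95 in cis cells, and 65 and 0 of 101 in cis SSP -SG cells. Across genes with a mean of at least 50 counts, the log2 fold changes of cis SSP cells without library 25 had an SD of 0.301 over 11132 genes, and those of cis cells over the same genes had an SD of 0.180. In wt cells the SD was 0.773, beside 0.302 in cis SSP cells over 11028 genes. In cis SSP -SG cells without library 32 it was 0.317, beside 0.308 over 11201 genes. The fits without library 25 or 32 had fewer untreated libraries than those of wt and cis cells.

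The difference between the responses of cis SSP and cis cells was tested by an interaction term. With all libraries, 61 of 14428 genes had a higher response in cis SSP cells (0.423%) and 12 a lower one (0.0832%), and without library 25 these were 1380 (9.38%) and 719 (4.89%) of 14716. The count of 73 was 27 to 35 without any 1 of the 6 cis libraries and 33 or 34 without library 28, 29 or 30. Of the 29 p53 targets, 2 had a higher and 0 a lower response in cis SSP than in cis cells with all libraries (edgeR, 12 and 0 at an unadjusted p under 0.05, 4 and 0 by DESeq2). Without library 25 these were 25 and 0 (27 and 0 at an unadjusted p under 0.05), with list medians of 0.82 in cis SSP and 0.50 in cis cells. CDKN1A rose by 1.83 in cis cells, and the difference was 0.95 (adjusted p = 1.78e-19, standard error 0.0459) without and 0.87 (adjusted p = 0.00405) with library 25. CD274 was at 0.936 ± 0.130 CPM (SD, n = 3) in cis and at 2.03 ± 0.266 CPM in cis carbo cells, and its difference was 1.74 (adjusted p = 0.0117) with and 1.65 (adjusted p = 4.84e-04) without library 25. THBS1 and MYCL, which encodes the transcription factor L-MYC, had differences of 1.89 (adjusted p = 0.0395) and 1.57 (adjusted p = 0.00108) with all libraries. MYCL was at 21.4, 18.3 and 17.1 CPM in cis SSP and at 62.0, 65.8 and 57.2 CPM in cis SSP carbo cells, against 21.8 ± 0.691 CPM in cis and 23.5 ± 2.43 CPM in cis carbo cells (SD, n = 3). Its log2 fold change was 0.12 (adjusted p = 0.247) in cis cells. SLC2A4 and ALDH3B1 had differences of -1.45 (adjusted p = 0.0117) and -1.04 (adjusted p = 0.0284), and FOS one of -0.89 (adjusted p = 0.0195). PHGDH fell by 0.21 in cis cells, and its difference was -0.33 without library 25 (adjusted p = 5.32e-07) and had an adjusted p of 0.299 with it. Of 76 ribosomal proteins, none differed with all libraries (edgeR, 0 at an unadjusted p under 0.05 and 0 by DESeq2) and the median difference was -0.30. Without library 25, 28 had a higher and 0 a lower response in cis SSP cells (42 and 0 at an unadjusted p under 0.05) and the median was 0.09.

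These tests use the same cis SSP libraries as the response itself. Against wt cells, 2026 of 15493 genes had a higher (13.1%) and 2105 a lower response (13.6%) with all libraries, and 4630 (29.2%) and 3924 (24.7%) of 15875 did without library 25. All 32 genes of G2 and mitosis fell in wt cells, with a median of -2.02, and all 32 had a higher response in cis SSP than in wt cells both with and without library 25. Of the replication genes 35 fell and 1 rose in wt cells with a median of -1.19, and 33 of 36 had a higher response in cis SSP cells with and 36 without library 25. For the TCA cycle and glutamine enzymes this was 11 and 26 of 32, and for glycolysis and glycerol enzymes 15 and 21 of 24. In wt cells 26 of 32 of the former fell and 2 rose, with a median of -0.31. Of the latter, 20 of 23 fell and 2 rose in wt cells, with a median of -0.36. The medians of these 2 lists in cis SSP cells without library 25 were -0.05 and 0.12. None of 76 ribosomal proteins differed with all libraries (edgeR, 0 higher and 1 lower at an unadjusted p under 0.05 and by DESeq2), with a median difference of -0.12, and 70 were higher and 1 lower without library 25, with a median of 0.29. The p53 targets went the other way, with 10 of 30 lower and 3 higher in cis SSP than in wt cells with all libraries, 21 lower and 5 higher without library 25, and a median of 1.29 in wt cells. NF-kB genes, of which 14 rose in wt cells with a median of 3.33, had lower responses in cis SSP cells for 11 of 14 with and 13 of 14 without library 25. RUNX3, a transcription factor gene, rose by 6.35 in wt cells and was at 42.8, 40.8 and 41.9 CPM in cis SSP and 41.3, 41.8 and 39.3 CPM in cis SSP carbo cells, with a log2 fold change of -0.04 (adjusted p = 0.832).

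**Figure D4:**
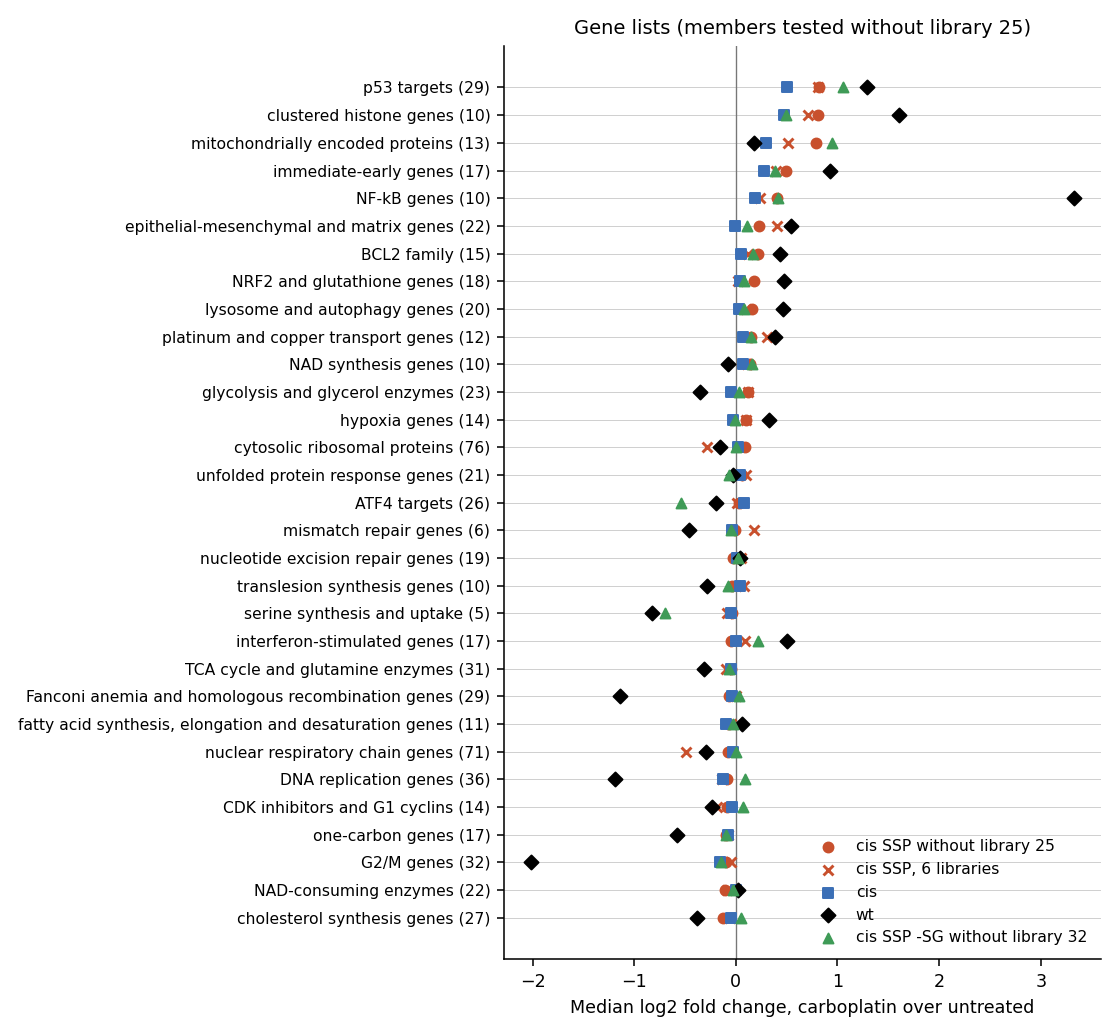
Median log2 fold change with carboplatin of each gene list with at least 5 tested members, ordered by the median in cis SSP cells without library 25 (red circles), beside all 6 libraries (red crosses), cis (blue squares), wt (black diamonds) and cis SSP -SG without library 32 (green triangles). Black diamonds lie far to the left for G2/M genes (-2.02) and DNA replication genes (-1.19), where the red circles stay near 0, and the crosses leave the circles most for ribosomal and nuclear respiratory genes.

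Within cis SSP cells, the responses in complete medium and without serine and glycine were compared by the same kind of test. With all libraries 4 of 14231 genes had a higher response in complete medium (0.0281%) and 0 a lower one (0.0%), against 710 at an unadjusted p under 0.05 in edgeR and 62 by DESeq2, 7 of these lower. Without libraries 25 and 32, 1341 of 14442 (9.29%) had a higher and 826 (5.72%) a lower response. Of the ATF4 targets 3 of 26 had a higher response in complete medium with all libraries and 24 of 26 without libraries 25 and 32, with a median difference of 0.67 and 0.66. Without serine and glycine 8 of 26 fell with carboplatin with all libraries, and 23 of 26 without library 32, with a median of -0.54, beside 10 risen, 6 fallen and a median of 0.04 in complete medium without library 25. INHBE, which encodes an inhibin subunit, was at 15.4, 13.8 and 13.8 CPM and then at 10.8, 11.8 and 12.6 CPM in complete medium, and at 68.2 ± 3.98 and 16.6 ± 1.37 CPM (SD, n = 3) without serine and glycine. Its difference was 1.74 (adjusted p = 0.00172) with all libraries and 1.83 (adjusted p = 3.34e-13) without libraries 25 and 32. SESN2 rose in complete medium and was at 114 ± 3.63 and 101 ± 2.37 CPM without serine and glycine, a difference of 0.80 (adjusted p = 0.0198). STC2, a secreted glycoprotein gene, had a difference of 0.98 (adjusted p = 0.00479) and NPR2 one of 0.98 (adjusted p = 0.00888). Of the 5 genes of serine synthesis and uptake, 2 fell with carboplatin without serine and glycine with all libraries and 5 without library 32, with medians of -0.62 and -0.70, beside -0.04 in complete medium without library 25. None of the 5 differed between the media with all libraries (edgeR, 4 higher and 0 lower at an unadjusted p under 0.05, 2 by DESeq2), and all 5 had a higher response in complete medium without libraries 25 and 32. PSAT1 differed by 0.51 between the media without those libraries (adjusted p = 3.81e-12), with an adjusted p of 0.167 with them.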

How the data were processed

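RNA-seq libraries of A2780 cells (single-end reads of 65 bases) were quantified by the authors, who deposited raw counts per gene for 36 libraries. Per the labels and the study's methods, STAR aligned the reads to the genome build GRCh37.p13 (hg19) and HTSeq counted them on GENCODE release 19 genes. The strand setting is not given in the sources used here, so a gene and an overlapping antisense gene cannot be told apart. Symbols, lengths and positions came from GENCODE release 44 lifted to GRCh37, which gave a symbol for 55538 of 57820 gene IDs. The 3 rows that name no gene were left out of library sizes.

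Groups were taken from the labels. Counts were tested with edgeR 4.0.16 in R 4.3.3 (TMM, filterByExpr, quasi-likelihood F-test, two-sided, Benjamini-Hochberg adjusted p under 0.05), on the libraries of each comparison. Standard errors were derived from the F statistic. Differences between responses were interaction terms. The calculation was tested on simulated data. Alternatives were DESeq2 1.42.0, which the study used, voom with sample quality weights in limma 3.58.1, other scalings and filters, removal of a trend over transcript length, and leaving out each library. Tables and figures were made with Python 3.11.15, pandas 2.3.3 and matplotlib 3.10.9.

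The gene lists and the named genes were chosen with earlier results of these data known. Named genes were, per direction, the 10 that changed most among genes called with and without library 25 whose mean reached 50 counts and whose groups did not overlap, at most 4 called members per direction and 2 uncalled defining members of each list, 12 genes of serine, NAD and p53 biology, and the 3 genes per direction with the largest difference of each interaction. Some genes that this rule names are not reported here. Counting error is larger for genes near or below 1 CPM. Where the libraries of a condition do not come from separate cultures, p-values measure only the spread between libraries, which may be technical.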

Additional observations from a re-analysis of the deposited data

Results flagged for a closer look

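The response of cis SSP cells to carboplatin was set against that of other cells by a test of the difference itself. It differed from that of cis cells in 73 genes, from that of wt cells in 4131 genes, and from that of cis SSP -SG cells in 4 genes (edgeR, adjusted p under 0.05).

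Against cis cells the log2 differences that stood out were 1.89 for THBS1, 1.74 for CD274, 1.57 for MYCL, -1.45 for SLC2A4, -1.04 for ALDH3B1 and -1.01 for ITGA2B. ITGA2B, an integrin subunit gene, was at 3.25, 2.87 and 2.99 CPM in cis SSP and at 1.68, 1.55 and 1.38 CPM in cis SSP carbo cells, and at 8.26 ± 0.295 and 8.29 ± 1.01 CPM (SD, n = 3) in cis and cis carbo cells.

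Against wt cells the log2 differences were 4.13 for TRHDE, 4.08 for DLX5, 3.63 for GALNT18, -7.04 for QPCT, -6.38 for RUNX3 and -6.19 for TRAF1. TRHDE and DLX5 had 0 counts in every cis SSP library and QPCT at most 2, so their fitted differences depend on the prior count and are no bound. TRAF1, an adaptor in NF-kB signalling, was at 0.163 ± 0.0554 CPM in wt and at 21.1 ± 1.13 CPM in wt carbo cells (SD, n = 3), and at 0.0707 to 0.610 CPM in the 6 cis SSP libraries. GALNT18, a glycosyltransferase gene, was at 13, 9.10 and 10.0 CPM and then at 16.8, 16.9 and 17.2 CPM in cis SSP cells, and at 0.199 CPM in wt and 0.0201 CPM in wt carbo cells on average, so its fitted difference likewise depends on the prior count and is no bound.

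Between the media the log2 differences were 1.74 for INHBE, 0.98 for STC2 and 0.98 for NPR2. STC2 was at 38.6, 40.5 and 40.8 CPM in cis SSP and at 45.5, 44.8 and 46.6 CPM in cis SSP carbo cells.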

How the results depend on the processing

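No paired analysis was possible because the labels do not say which library of a condition belongs with which library of another. The common dispersion was 0.0328 with and 8.23e-04 without library 25. No fit at another depth was made.

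For carboplatin in cis SSP cells the count of 377 genes (273 higher, 104 lower) became 723 (465 and 258) with DESeq2, 3090 (1411 and 1679) in a fit over the 36 libraries, 5572 (2905 and 2667) with voom weights, 1035 (635 and 400) after removal of a trend over transcript length, 5856 (3157 and 2699) with that and without library 25, chosen after seeing the data, and 211 (176 and 35) where the absolute log2 change also had to reach 1. Leaving out libraries 25 to 30 in turn gave 5835, 65, 54, 9, 22 and 17 genes, of which 3109, 56, 47, 9, 20 and 16 were higher and 2726, 9, 7, 0, 2 and 1 lower. The cause was not tested.

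In cis cells 2702 genes became 1346 with DESeq2 and 401 over the 36 libraries, and 1755 to 2554 without 1 library. In cis SSP -SG cells 199 became 575, 2860 and 777 (DESeq2, 36 libraries, length trend), and 3, 5679 and 4 without libraries 31, 32 and 33 and 0 without 34, 35 or 36. The difference between cis SSP and cis cells went from 73 to 218 (DESeq2), 45 (total counts), 41 (no filter), 281 (36 libraries), 1976 (voom), 220 (length trend) and 28 (log2 of at least 1), 27, 35, 32, 31, 35 and 33 without libraries 13 to 18, and 2099, 63, 54, 33, 34 and 33 without libraries 25 to 30. Against wt cells 4131 became 8761 (voom) and 1724 (log2 of at least 1), and 3324 to 8554 without 1 library. Between the media 4 became 62 (DESeq2), 1 (no filter), 204 (36 libraries), 1679 (voom), 44 (length trend), 1 (log2 of at least 1), 2167 without libraries 25 and 32, chosen after seeing the data, and 1, 2, 3, 6 or 10 without 1 library, with 10 for library 32. The other settings kept these counts within 1.5 times.

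Leaving out 1 library turned the sign in at least 1 fit for 28 of the 211 genes that the naming rule chose and that were tested. Among those whose values are given above, signs turned for 9, none called with all 6 libraries. PSPH had -0.03 with total counts, -0.0088 over the 36 libraries, and -0.0304 and -0.0301 without libraries 26 and 27. UBE2C had 0.27 with voom, 0.23 with the length trend removed, 0.28 without library 25 and 0.27 with both. In the same order FTL had 0.30, 0.28, 0.31 and 0.30, NDUFS5 0.21, 0.0414, 0.21 and 0.21, RPS19 0.32, 0.0059, 0.33 and 0.31, and SLC1A4 -0.0151, -0.0058, -0.0150 and -0.0052. FTL also had 0.0033 with at least 10 counts in every library and 0.0248 without library 30. ASPM had 0.0786 without library 26. MKI67 had 0.28, 0.14 and 0.0020 without libraries 26, 27 and 29. GPX1 had -0.0616 and -0.0666 without libraries 26 and 27. The cause was not tested.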

Other observations

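The counts of other lists are given here beside the shares of all genes tested. These were 1.97% higher and 0.749% lower with all 6 libraries, and 21.9% and 19.2% without library 25. Of 21 unfolded protein response genes none was called by edgeR (1 higher and 0 lower at an unadjusted p under 0.05, 0 by DESeq2), while 8 rose without library 25, with a median of 0.06. Of 20 lysosome and autophagy genes 1 rose with all 6 libraries, and 11 rose and 1 fell without library 25, with a median log2 fold change of 0.16. Of 14 hypoxia genes 1 rose with all 6 libraries, and 6 rose and 3 fell without library 25.

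Of 15 BCL2 family genes 1 rose with all 6 libraries, and 7 rose and 3 fell without library 25. Of 14 CDK inhibitors and G1 cyclins 1 rose, CDKN1A, and 3 rose and 6 fell without library 25. Of 22 NAD-consuming enzymes none was called with all 6 libraries (edgeR, 0 higher and 4 lower at an unadjusted p under 0.05, 0 by DESeq2), and 4 rose and 9 fell without library 25. Of 10 translesion synthesis genes none was called with all 6 libraries (edgeR, 1 higher and 1 lower at an unadjusted p under 0.05, 1 by DESeq2), and 3 rose and 2 fell without library 25. Of 11 fatty acid genes none was called with all 6 libraries (edgeR, 2 higher and 0 lower at an unadjusted p under 0.05, 1 by DESeq2), and 2 rose and 4 fell without library 25. Of 6 mismatch repair genes none was called with all 6 libraries (edgeR, 0 at an unadjusted p under 0.05, 0 by DESeq2), and 1 rose and 2 fell without library 25.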
